A study of Caenorhabditis elegans with 2 samples.

Results

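Homeobox genes encode transcription factors with a homeodomain, and the 86 homeobox genes described here are those of Caenorhabditis elegans near which binding of the Distal-less type homeodomain protein CEH-43 was looked for. They comprised 59 protein-coding genes with a symbol of ceh- plus a number and 27 listed by other symbols, out of 19985 protein-coding genes. The ceh-43 gene itself and ceh-20, ceh-40 and ceh-60 were left out. Membership rested on gene names, not on binding values, although the list was drawn up with earlier results of these data known.

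CEH-43 binding was measured by chromatin immunoprecipitation with sequencing (ChIP-seq) in embryos of strain OP699, in 2 biological replicates of 1 group. The strain carries unc-119(tm4063) and the transgene wgIs699, in which ceh-43 is joined to TY1, EGFP and 3xFLAG tags and an unc-119(+) copy is included. Embryos came from egg bleaching, were labelled as mixed stage and mixed sex with an age of 3 hours, and chromatin was precipitated with an antibody to GFP. Whole embryos were used, so a peak does not show in which cells the protein was bound, and the protein measured is the tagged one.

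Homeodomain factors act in cascades in the worm embryo. Hox proteins mark position along the body, Sine oculis, Pax and Otx type factors act in the head, and LIM, POU and paired-like factors specify single neuron classes. CEH-43 is known for its part in the anterior epidermis and in dopamine neuron identity. Distal-less type homeodomains bind a core that reads TAATTA or TAATTG, called the homeodomain word here and searched on both strands.

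The authors deposited a thresholded list of peaks, which were the strongest of a relaxed list of 30000 peaks made from both replicates (the pooled list), and a relaxed list for each replicate. Peaks were ranked by the authors' signal value, rank 1 being the strongest. The signal's scale is not given and differs between lists, so it is compared only within a list. A peak's summit was given to the gene whose protein-coding start was the nearest and within 5000 bp. With 1 group and 2 replicates there is no contrast to test, and the results are counts, ranks and shares, with exact (Clopper-Pearson) 95% intervals that cover counting error over genes or summits only.

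Of the 86 homeobox genes, 5 had at least 1 thresholded summit within 5000 bp of the start. These were 7 summits, 3 at ceh-58 and 1 each at vab-7, mls-2, zfh-2 and vab-3. The sequences of 6 of the 7 summits are shown first, because the homeodomain word (in capitals) lies within 50 bp of each. They cover the 50 bp to each side of the summit on the forward strand of the ce11 build, as held in RefSeq, in order of signal.
ceh-58, far upstream site (chrII:10373750-10373850): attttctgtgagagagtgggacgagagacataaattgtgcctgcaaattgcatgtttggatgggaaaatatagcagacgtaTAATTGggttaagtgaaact
vab-7, intronic site (chrIII:10922656-10922756): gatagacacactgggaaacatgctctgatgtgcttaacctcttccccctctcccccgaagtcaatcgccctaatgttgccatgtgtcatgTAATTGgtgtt
ceh-58, promoter site (chrII:10369764-10369864): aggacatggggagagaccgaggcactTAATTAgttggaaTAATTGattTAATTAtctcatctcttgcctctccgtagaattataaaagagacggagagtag
mls-2, intronic site (chrX:4759875-4759975): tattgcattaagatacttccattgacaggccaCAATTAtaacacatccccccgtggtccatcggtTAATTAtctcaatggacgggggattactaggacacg
ceh-58, second far upstream site (chrII:10373956-10374056): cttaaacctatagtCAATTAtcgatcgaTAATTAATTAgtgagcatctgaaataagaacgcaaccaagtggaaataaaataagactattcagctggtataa
vab-3, intronic site (chrX:10502913-10503013): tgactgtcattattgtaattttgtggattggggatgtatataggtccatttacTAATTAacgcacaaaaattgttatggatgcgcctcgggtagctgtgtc

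In the far upstream ceh-58 site the word began 31 bp to the right of the summit, in the vab-7 site 40 bp to the right and in the vab-3 site 3 bp to the right. The ceh-58 promoter site and the second far upstream ceh-58 site each held the word at 3 places within 50 bp, of which a pair overlaps in the latter, and the mls-2 site at 2. Base composition varied: G and C made up 38.6% of the strongest ceh-58 window, 48.5% of the vab-7 window and 30.7% of the second far upstream ceh-58 window.

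ceh-58 (WBGene00007417), a homeobox gene for which no class is given here, had the strongest homeobox site. The gene lies on the reverse strand of chromosome II from 10367741 to 10369597, and all 7 of its pooled summits lay upstream of its start. The strongest was 4203 bp upstream in intergenic sequence, at pooled rank 39 with a signal of 600. Replicate 1 had it at rank 31 (signal 331) and replicate 2 at rank 57 (signal 267). A second summit 206 bp farther out (4409 bp upstream, pooled rank 872, signal 148) stood at rank 575 in replicate 1, against 952 in replicate 2, and its interval shared 182 bp with that of the strongest, so they are not separate evidence. The third thresholded summit lay in the promoter, 217 bp upstream, at pooled rank 464 (signal 193), with ranks of 293 and 730 in replicates 1 and 2. All 3 were also among the strongest peaks of each replicate, counted to the length of the thresholded list. Between them lay a summit just outside the threshold, 1334 bp upstream at pooled rank 1060 (signal 136), with ranks of 544 and 4015 in replicates 1 and 2. Of the 7 summits 6 held the homeodomain word, against 38.1% of all pooled homeobox summits and 25.9% of pooled summits at other genes. The promoter summit is also 2518 bp upstream of the next start, that of the homeobox gene ceh-57, so it cannot be assigned to 1 of them by distance alone.

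**Figure D1:**
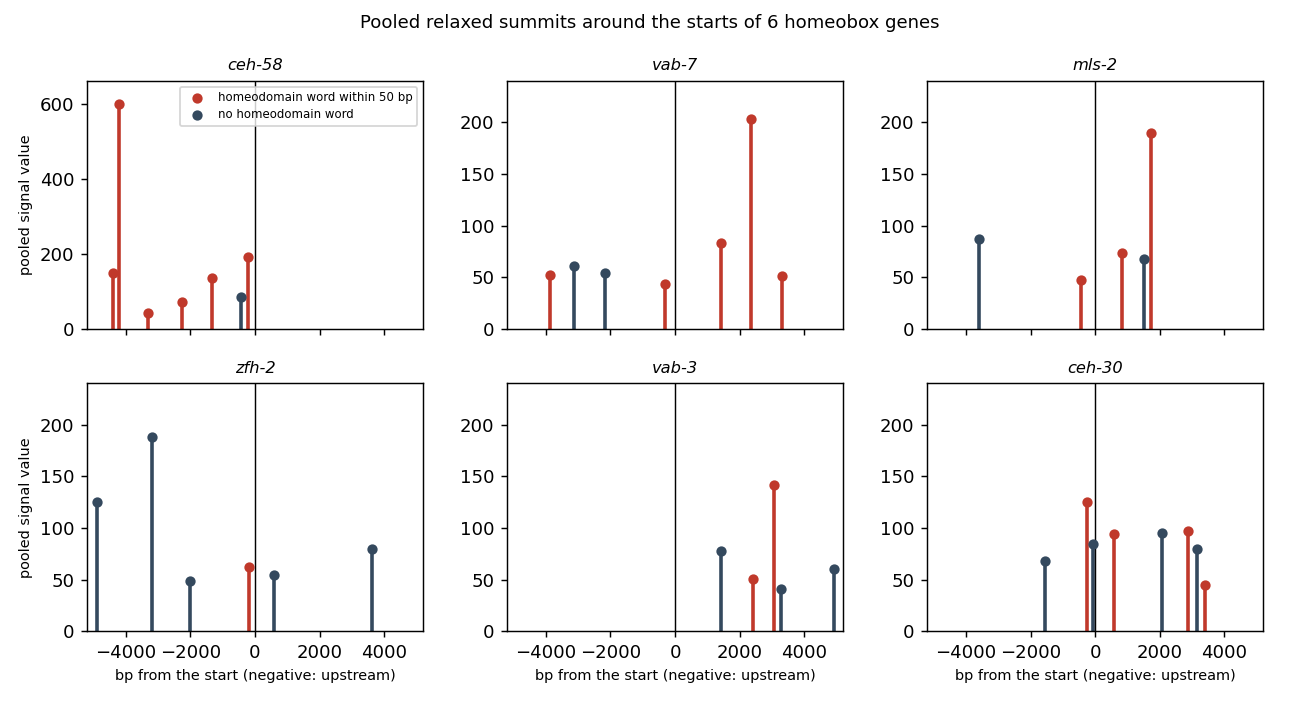
Pooled relaxed summits around 6 homeobox genes, by distance from the start in bp (x, negative upstream) and pooled signal value (y, the ceh-58 panel on a longer axis). Red marks a homeodomain word within 50 bp of the summit. The ceh-58 summits all lie upstream and reach 600, and the strongest vab-7, mls-2 and vab-3 summits lie downstream of the start.

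vab-7, mls-2 and vab-3 had their strongest site inside an intron. vab-7 (chromosome III, 10920344 to 10926041) is the Even-skipped homologue, known for patterning of the posterior body and for motor neuron identity. Its strongest summit lay 2362 bp downstream of the start at pooled rank 428 (signal 203), at rank 543 in replicate 1 (signal 92.3) and 393 in replicate 2 (signal 111). Of the 5 genes, it and ceh-58 were within the length of the thresholded list in both replicates. Of its 7 pooled summits 5 held the word, against 38.1% of all pooled homeobox summits and 25.9% of pooled summits at other genes. Those of the 5 at pooled ranks 15858, 16696 and 23662 were not found in both replicates.

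mls-2 (chromosome X, 4758804 to 4761640) encodes an HMX-type factor of the NK-like class, known from the mesodermal M lineage. Its intronic summit 1715 bp downstream of the start was at pooled rank 475 (signal 190), with rank 312 in replicate 1 (signal 116) and 1207 in replicate 2 (signal 73). vab-3 (chromosome X, 10499890 to 10519580) is the Pax6 gene, known for head morphogenesis. Its intronic summit 3073 bp downstream was at pooled rank 961 (signal 142), with rank 1505 in replicate 1 (signal 61.5) and 1000 in replicate 2 (signal 77.6). Each of these summits was beyond the length of the thresholded list in at least 1 replicate. The vab-3 summit was the weakest homeobox summit inside the threshold, where the weakest of all thresholded peaks had a signal of 139. Its flanking windows, centred 500 bp away on each side, also held the word.

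zfh-2 (chromosome I, 803368 to 834765), which encodes a zinc finger homeodomain protein, was the exception in sequence. Its summit 3175 bp upstream had a pooled rank of 491 (signal 188), rank 273 in replicate 1 (signal 122) and 1438 in replicate 2 (signal 69.3), and no homeodomain word within 50 bp. Its window was 15.8% G and C, the lowest of the 7. A second zfh-2 summit 4886 bp upstream (pooled rank 1306, signal 125) also had no word. All 7 thresholded homeobox summits had a summit within 100 bp in each replicate's relaxed list, and 4 of 7 were among the equally many strongest peaks of both.

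A share of 5.81% of homeobox genes with a thresholded summit (5 of 86, 1.91 to 13%) was close to the 4.03% of all protein-coding genes. Homeobox genes lie in roomier surroundings: the length for which their start is the nearest had a median of 6046 bp, against 3857 bp over all genes, and 47 of 86 were in the longest 3 of 10 length classes. In genes of the same length classes, 5.09% had a thresholded summit, which corresponds to 4.38 of 86 genes. The observed count was 1.14 times that. The replicates gave different counts at this depth of list, with intervals that overlap. Among the strongest peaks of replicate 1, taken to the same number, 10 homeobox genes had a summit (11.6%, 5.72 to 20.3%, against 3.98% of all genes and 5.24% from the length classes). Among those of replicate 2, 2 had one (2.33%, 0.283 to 8.15%, against 3.97% and 5.22%). The interval of replicate 2 thus holds both comparison values, while that of replicate 1 lies above both, by little for the length classes. The 2 genes of replicate 2 were ceh-58 and vab-7. They were also among the 10 (20% of the genes of replicate 1 and 100% of those of replicate 2). At other protein-coding genes the replicates shared 516, which is 65.7% of the list of replicate 1 and 65.2% of that of replicate 2. The other 8 of replicate 1 were alr-1, ceh-30, ceh-38, mls-2, unc-86, vab-15, zag-1 and zfh-2.

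Taken down to rank 3000, the homeobox share was above both comparison values in the pooled list and in each replicate. For replicate 2 this differs from the shorter list, where it was below them, and for replicate 1 the ratio to the length classes was 1.55, against 2.22 in the shorter list. Up to pooled rank 3000, 19 of 86 had a summit (22.1%, 13.9 to 32.3%), against 10.9% of all genes and 14.5% from the length classes. In replicate 1 it was 19 (22.1%, 13.9 to 32.3%), against 11% of all genes and 14.2% from the length classes. In replicate 2 it was 22 (25.6%, 16.8 to 36.1%), against 10.9% and 14.6%. The value from the length classes lay inside the interval in the pooled list and in replicate 1, and below it in replicate 2. Of these genes, 14 were reached in both replicates, which is 73.7% of the list of replicate 1 and 63.6% of that of replicate 2, against 55.5% and 56.3% at other protein-coding genes. Reaching the same gene did not always mean the same site. In 7 of the 14 (50%) a summit of each replicate lay within 100 bp of the other, against 80.9% at other genes: ceh-30, ceh-39, ceh-58, mls-2, vab-3, vab-7 and zfh-2. In ceh-13, ceh-32, ceh-38, ceh-51, ceh-86, ttx-1 and zag-1 the summits up to rank 3000 were farther apart. The replicates were compared with the same control, and their lists are not independent of the pooled list.

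**Figure D2:**
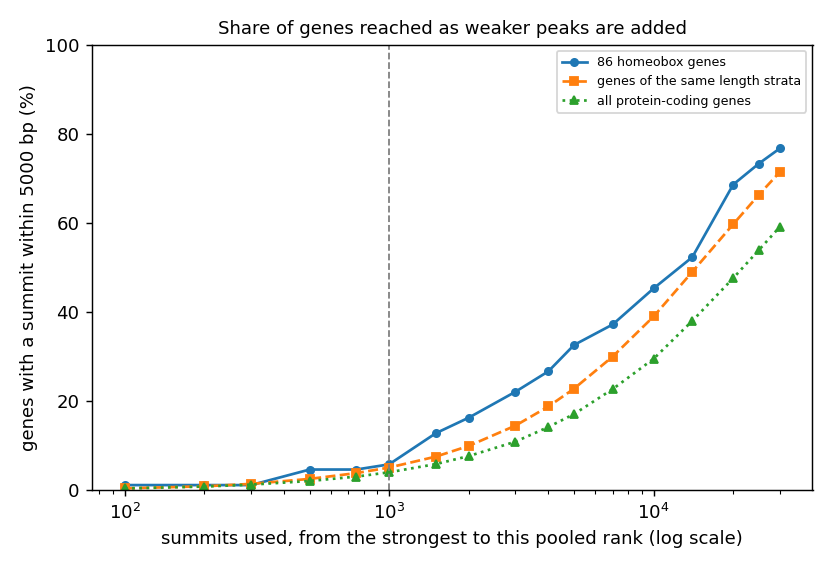
Percentage of genes (y) with a summit within 5000 bp as summits are added from the strongest to a given pooled rank (x, log scale), for the 86 homeobox genes, for genes of the same length classes and for all protein-coding genes. The dashed line marks the end of the thresholded list, where the homeobox value is 5.81% and the length-class value 5.09%. At rank 3000 they are 22.1% and 14.5%.

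In the whole pooled list, 66 homeobox genes had 223 summits (76.7%, against 59.1% of all genes and 71.4% from the length classes). The relaxed list of replicate 1 reached 67 (77.9%, against 60.1%) and that of replicate 2 reached 63 (73.3%, against 57.1%). Of all 86, 17 had 5 or more pooled summits (19.8%), against 4.39% of all genes and 9.83% from the length classes. The 223 summits are not independent sites, since 31 neighbouring pairs lay within 300 bp of each other. No list held a summit for 14 of the 86 genes. How many of all protein-coding genes lack a summit in every list was not counted, so the 14 have no comparison value. A pooled summit was also absent for many other genes, since 59.1% of all genes had one. The 14 were unc-4, which acts in motor neurons, the LIM gene lim-6, and ceh-7, ceh-19, ceh-28, ceh-41, ceh-49, ceh-75, ceh-76, ceh-81, ceh-82, ceh-84, ceh-99 and ceh-100. A further 6 genes without a pooled summit had one in a replicate's own list, among them mec-3, the LIM gene of touch neurons (rank 12013 in replicate 1).

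**Figure D3:**
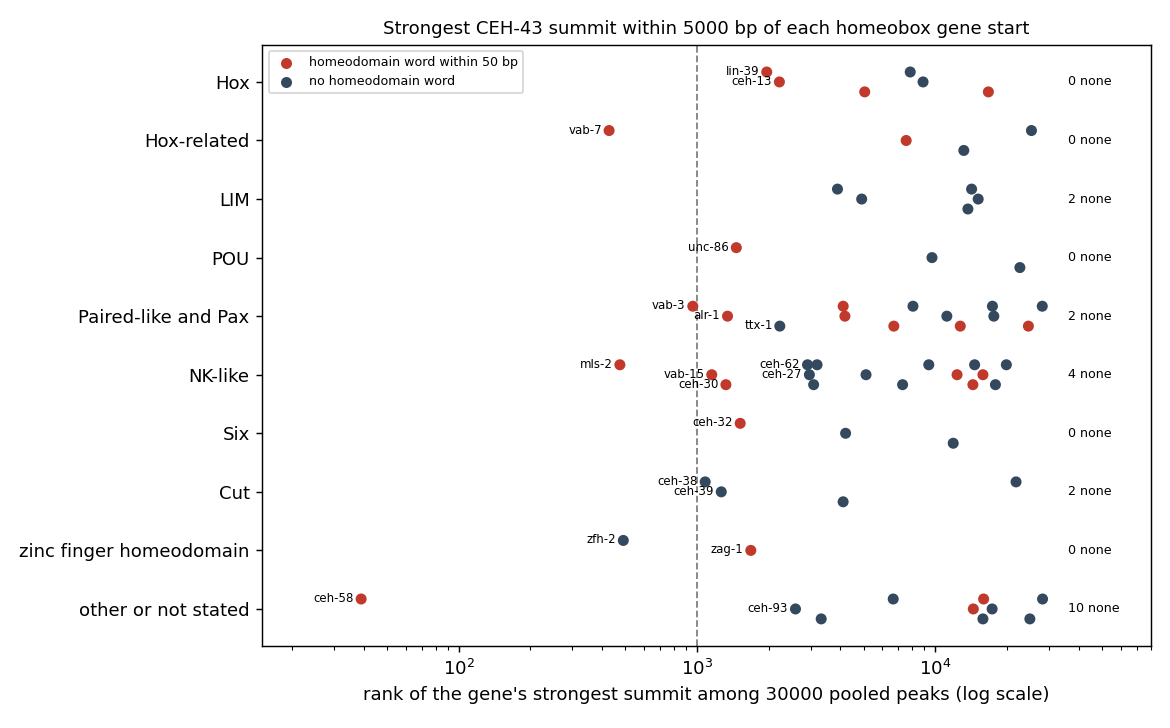
Pooled rank of the strongest summit within 5000 bp of each homeobox gene start (x, log scale), by homeobox class (y); the number with none is at the right and the dashed line marks the end of the thresholded list. Red marks a homeodomain word within 50 bp of that summit. Genes up to rank 3000 are named, and no LIM gene is among them.

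The homeobox classes are small and were not compared with length-matched genes. Over all protein-coding genes, 4.03% had a thresholded summit, 10.9% one up to pooled rank 3000 and 59.1% a pooled one. By class, the Hox genes had no thresholded summit and all 6 had pooled summits, too few genes to set the class apart. lin-39, the mid-body Hox gene, had its strongest summit in an intron 1213 bp downstream of its start, at pooled rank 1963 (signal 109), with ranks of 3263 and 3200 in replicates 1 and 2. ceh-13, the labial type gene of the anterior body, had one 1601 bp upstream at pooled rank 2218 (signal 105), rank 2161 in replicate 1, with no summit within 100 bp in replicate 2. The other 4 were weaker: nob-1 at pooled rank 5058, egl-5 at 7851, php-3 at 8887 and mab-5 at 16704, all of them genes of the posterior body. Of the 23 Hox summits 11 held the homeodomain word (47.8%), against 38.1% of all pooled homeobox summits and 25.9% of pooled summits at other genes. Found in both replicates were 6 of the 23, against 31.8% of all pooled homeobox summits and 29.7% of all other pooled summits. pal-1, the Caudal gene, had 1 summit, in a coding exon at pooled rank 25327, and ceh-12 (Mnx type) and ceh-16 (Engrailed) had their strongest at ranks 7550 and 13174.

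Of the 20 NK-like genes, 5 had a summit up to pooled rank 3000, against 22.1% of the 86 homeobox genes and 10.9% of all protein-coding genes. So few genes do not set the class apart. After mls-2 came vab-15, the Msx gene, with a promoter summit 782 bp upstream at rank 1154 (signal 132), at rank 598 in replicate 1 and 3239 in replicate 2, which held the word. ceh-30, a BarH type gene known for survival of male-specific CEM neurons, had 8 pooled summits. The strongest was 263 bp upstream at rank 1323 (signal 125), at rank 899 in replicate 1 and 2925 in replicate 2. The next genes, ceh-62 and ceh-27, were at ranks 2911 and 2964.

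Of 15 paired-like and Pax genes 3 reached rank 3000, vab-3 among them, against 22.1% of the 86 and 10.9% of all protein-coding genes. These are also too few to set the class apart. alr-1, the Aristaless gene, known from sensory and motor neurons, had a summit 2415 bp upstream at pooled rank 1344 (signal 124) and at rank 436 in replicate 1, with none within 100 bp in replicate 2. ttx-1, the Otx gene of thermosensory neurons, had 8 pooled summits and the strongest at rank 2227, that summit being at rank 22961 in replicate 1 but 1217 in replicate 2. At both genes the replicates thus differed widely at the strongest site.

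Cut genes had no thresholded summit nearest to them, but ceh-38, a ONECUT type gene, was the gene next below the threshold: 35 bp downstream of its start at pooled rank 1083 (signal 135), the last of the strongest set of replicate 1 and rank 1208 in replicate 2, each within 100 bp of the pooled summit but not of the other. ceh-39, known as an X-linked signal in sex determination, followed with a promoter summit 102 bp upstream at rank 1265 (signal 127), at rank 1510 in replicate 1 and 2205 in replicate 2. Neither held the word, and ceh-48 was at rank 4106. A thresholded peak of rank 453 lay 2622 bp upstream of ceh-39 but was nearer to the start of T26C11.8.

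In the other classes, zag-1, the ZEB type zinc finger homeodomain gene of neurons, had its strongest pooled summit in an intron at rank 1683 (signal 115), at rank 676 in replicate 1 and 21192 in replicate 2. unc-86, the POU gene of many neuron classes, had an intronic summit 1015 bp downstream at pooled rank 1463, at rank 966 in replicate 1 and 8595 in replicate 2. The POU genes ceh-6 and ceh-18 were at ranks 9689 and 22649. ceh-32, a Sine oculis type gene of the head, had a summit at rank 1519, at rank 1725 in replicate 1, with none within 100 bp in replicate 2. A further ceh-32 summit at pooled rank 2647, whose interval overlaps that of the first, was at rank 12737 in replicate 1 and 1463 in replicate 2. The related genes ceh-34 and ceh-33 were at ranks 4205 and 11893. None of the 7 LIM genes reached rank 3000 in the pooled list, too few genes to set the class apart. Their strongest were lim-4 at rank 3888, lim-7 (Islet type) at 4912 and lin-11 at 13707. In the list of replicate 2, lim-7 reached rank 1635 and lin-11 rank 2976. In that of replicate 1, lim-7 was at rank 10790 and lin-11 had no summit. Among the 20 genes of no stated class, ceh-93 was at rank 2591 and ceh-86 at 3322, and 10 had no pooled summit. Of all protein-coding genes 59.1% had a pooled summit.

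Of 12 homeobox genes outside the 86, ceh-43 had thresholded summits (4, the strongest at rank 7 with a signal of 1378) and the other 11 had none. The transgene of the strain also holds ceh-43, and how far its copies bear on the ceh-43 signal was not tested. Of all protein-coding genes 4.03% had a thresholded summit. The strongest of the 11 were pros-1 (Prospero) at rank 2006, unc-62 (Meis type) at 2220, irx-1 (Iroquois) at 3483 and ceh-20 (PBX) at 3782.

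**Figure D4:**
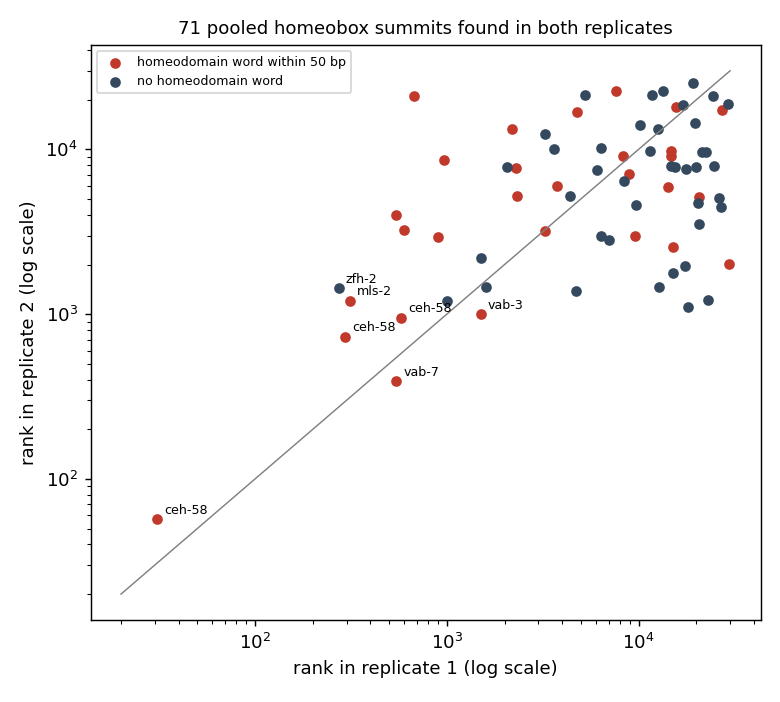
Rank in replicate 1 (x) against rank in replicate 2 (y), both on log scales, for the 71 pooled homeobox summits with a summit within 100 bp in each replicate; the grey line marks equal ranks and red marks a homeodomain word. The thresholded summits are named at the lower left, and 16 of the 71 (22.5%) differ more than 5-fold in rank, against 13.6% of other summits.

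Over all 223 pooled homeobox summits, 71 (31.8%) were found in both replicates, against 29.7% of all other pooled summits. Found in neither were 25 (11.2%), against 13.9% of all other pooled summits. Going down the pooled list, 7 of 7 thresholded summits, 15 of 20 of the next to rank 3000, 37 of 65 from there to rank 10000 and 12 of 131 from there to rank 30000 were found in both. The shares at the other summits were 94.7%, 82.6%, 57.5% and 11.5%. Among the 71, the larger rank was a median of 2.32 times the smaller, against 1.95 at the others.

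The share of pooled summits that lay at homeobox genes was 0.701% in the thresholded ranks (7 summits, 0.282 to 1.44%). It was 0.999% in the next ranks to 3000 (0.611 to 1.54%), 0.929% from there to 10000 (0.717 to 1.18%) and 0.655% from there to 30000 (0.548 to 0.777%). The strongest class did not stand apart from the lower ones beyond counting error. Homeobox genes made up 0.43% of protein-coding genes and 0.615% of the length nearest to a start, which was counted only within 5000 bp. The shares of summits given above have a different base, since each rank class also includes summits over 5000 bp from any start. They are therefore lower than shares of the assigned summits would be, and cannot be set directly against the 0.615%. Summits at homeobox genes lay farther from the start, at a median of 1716 bp against 1212 bp at other genes. These medians were not matched for length, and the length nearest to a start was also larger (median 6046 bp, against 3857 bp over all genes). Of the homeobox summits 38.1% were in introns and 27.4% in intergenic sequence, against 34.7% and 21.1% of all other pooled summits. The latter include summits over 5000 bp from any start.

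The homeodomain word was within 50 bp of 6 of the 7 thresholded homeobox summits (85.7%, 42.1 to 99.6%), against 31.3% of thresholded summits at other genes (28.3 to 34.5%). In lower ranks of the homeobox summits it was at 11 of 20 (55%, 31.5 to 76.9%), 20 of 65 (30.8%, 19.9 to 43.4%) and 48 of 131 (36.6%, 28.4 to 45.5%), against 37.6%, 30.7% and 22.7% at other genes. The share in homeobox summits was highest in the strongest class, with intervals that overlap. In the strongest and in the lowest class the homeobox interval lay above the share at other genes, and in the classes between it held that share. The strongest class has 7 summits, and 3 of them lie at ceh-58.

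Without ceh-58 the word was at 3 of the 4 remaining thresholded summits (75%). Thresholded homeobox windows were poorer in G and C, with a median of 38.6% against 46.5% at other genes, and 160 of all 991 other thresholded summits were within 100 bp of a tRNA gene, while none of the 7 were. How far base composition and tRNA genes bear on the difference was not tested.

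**Figure D5:**
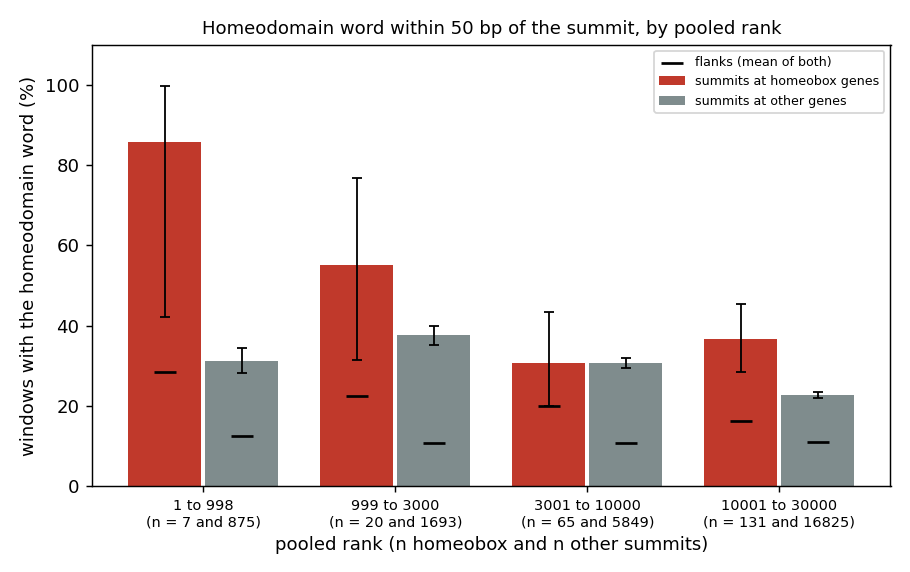
Percentage of summits with the homeodomain word within 50 bp (y) in 4 classes of pooled rank (x), at homeobox genes (red) and other genes within 5000 bp (grey), with exact 95% intervals and a black dash for the mean of both flanks. The homeobox bars read 85.7%, 55%, 30.8% and 36.6%, and their dashes lie above those of other genes in each class.

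The word was also in 18.4% of the flanking windows of homeobox summits, against 10.9% at other genes. Windows centred more than 500 bp from any pooled summit held it in 12.6% around homeobox starts (11.5 to 13.7%) and 11.5% around other starts, a smaller difference. With summits included it was in 15.3% of all windows of the same width around homeobox starts, against 12.5% around other starts. These windows tile the length within 5000 bp for which a start is the nearest, with a median G and C content of 34.7% in both. At the summits themselves the word was in 38.1% (31.7 to 44.8%) against 25.9%. The replicates differed in this measure. Among summits between the threshold rank and rank 3000 it was at 13 of 17 homeobox summits in replicate 1 (76.5%, 50.1 to 93.2%) and at 6 of 25 in replicate 2 (24%, 9.36 to 45.1%). At other genes the shares in that class were 44.3% and 26.2%. Among the strongest, to the length of the thresholded list, it was at 10 of 13 in replicate 1 (76.9%, 46.2 to 95%) and 4 of 4 in replicate 2 (100%, 39.8 to 100%), against 39.5% and 23.1% at other genes. The 4 of replicate 2 lay at ceh-58 and vab-7 alone, and a pair of them at ceh-58 had overlapping intervals in the pooled list.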

How the data were processed

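ChIP-seq peak lists of 2 replicates were used. Per the text files deposited with them, the authors derived a relaxed list per replicate and 1 from both replicates, each with the same control, and a thresholded list by an irreproducible discovery rate step, all on ce11 (the same assembly as WBcel235). For the aligner, the peak caller and the cutoff, nothing is given in the sources used here. The authors' signal value per peak has no stated scale and was used for ranking; the deposited −log10 q-values were not used. Read depth is unknown.

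Genes came from Ensembl release 115 and sequence from RefSeq. The start of a gene is the upstream end of its record. Summits within 100 bp of each other counted as shared between lists. Word windows reached 50 bp to each side, and flanks were centred 500 bp away. The value from the length classes is the mean, over the homeobox genes, of the share of all genes in the same of 10 equal classes of the length for which a start is the nearest within 5000 bp. Promoters are the 1000 bp upstream of a start. Python 3.11.15, numpy 2.4.6, pandas 2.3.3, scipy 1.17.1 and matplotlib 3.10.9 were used, and the assignment and word search were tested on simulated data.

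The members, lists and classes were chosen with earlier results of these data known. Genes named are those with a thresholded summit, the Hox and posterior genes, the 5 genes next below the threshold, the 5 with the most summits, ties included, and up to 3 of best rank per class; any other gene named was chosen after its values were seen, to spell out a count. The plan was to print 30 bp to each side of 4 summits; after the values were seen this became 50 bp at 6 summits, since the word lay beyond 30 bp in some. The shared-site counts to rank 3000 and the windows more than 500 bp from summits were also chosen after the values were seen. Protein sequences were not used.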

Additional observations from a re-analysis of the deposited data

How the results depend on the processing

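Of 57 alternatives to 7 results, 43 stayed within the main interval or within 1.5 times the main count and 14 did not. The intervals are wide, so this tally is a weak measure of stability. All 12 alternatives of the ratio to the length classes stayed inside an interval of 0.376 to 2.56. A word share of 57.1% also stayed inside the interval of the main 85.7% (42.1 to 99.6%). The number of homeobox genes with a thresholded summit (5) was 2 within 2000 bp and 1 within 1000 bp of the start, since most of these summits are distal, and ran from 2 to 10 with a replicate left out. The word share at thresholded homeobox summits (85.7%) was 100% within 2000 bp (2 of 2) and within 1000 bp (1 of 1), 100% with the shorter word TAAT or with 100 bp to each side, 57.1% (4 of 7) with TAATTA alone or with 25 bp to each side, and ran from 76.9% to 100% with a replicate left out. The share of the thresholded ranks at homeobox genes (0.701%) was 0.2% within 2000 bp and 0.1% within 1000 bp, and ran from 0.401% to 1.3% with a replicate left out. The share of thresholded homeobox summits in both replicates (100%) was 57.1% among the equally many strongest peaks of each replicate. The count up to pooled rank 3000 (19), a result chosen after seeing the data, was 12 within 2000 bp and 7 within 1000 bp, and ran from 19 to 22 with a replicate left out. For rank 3000 the shares over all genes and from the length classes were not computed at 2000 and 1000 bp. Whether the homeobox share stays above them at those distances is therefore not known.

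The ratio to genes of the same length classes (1.14) ran from 0.445 without replicate 1 to 2.22 without replicate 2, and was below 1 within 2000 bp (0.758), within 1000 bp (0.577) and with summits in the gene or up to 5000 bp upstream (0.89). The gene count of 66 in the pooled list ran from 48 to 67 over 5 alternatives. Read depth is unknown, and the number of summits (7) limits every share at thresholded sites. No paired analysis was possible because there is 1 group.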
